A study of Populus tremula x Populus alba with 6 samples.

Results

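Ogre elements are a lineage of very large Gypsy retrotransposons, and their loci were followed here through 6 mobilome-seq libraries of hybrid poplar. A locus was taken as an Ogre locus where the first of its repeat family names began with Ogre, whether that name was for a long terminal repeat (LTR) or for the internal part. This gave 42 of 436 listed loci (9.63%) and 68 of 665 entries, an entry being a locus in 1 library's list. Mobilome-seq amplifies and sequences extrachromosomal circular DNA, and each deposited list holds the repeat loci covered by that DNA in 1 library. The libraries came from shoot apical meristems of the 717-1B4 clone of Populus tremula x Populus alba. There was 1 library each for ddm1 RNAi line 15 after drought and rewatering (called drought below), ddm1 RNAi line 23 after drought, WT after drought, ddm1 RNAi line 15 under control watering, ddm1 RNAi line 23 under control watering, and WT under control watering. The 2 RNAi lines share the clone of the WT plants. The labels used here do not give the RNAi promoter, the number of plants per library or the level of ddm1, which a DNA assay does not measure.

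An LTR retrotransposon copies itself through RNA. Its 2 LTRs carry the start and stop signals of transcription and flank an internal part that encodes the capsid protein and the enzymes for reverse transcription and integration. The linear DNA copy that these enzymes make can close into a circle instead of inserting, which is why circular DNA is read as a trace of active elements. Plants silence such elements with DNA methylation, and DDM1 is a chromatin remodeller that this methylation depends on. Ogre elements were first described in legumes and are known for their size and for an additional reading frame ahead of the capsid gene. No sequence of the loci is shown, because no genome of the matching build was used, and their position relative to genes is not given for the same reason.

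Every locus carries a depth value and a split-read value, as the headers DOC and SR were read. Both are whole numbers deposited without scaling to the library. On that reading, a split read spans a joint between distant bases, as at the point where a circle closed. The summed depth value of all listed loci lay between 22388 (line 23 drought) and 92011 (WT control). This library sum depends strongly on the highest locus of each list, which was not an Ogre locus. Without that locus, the Ogre part of the sum rose in every library, but not by the same factor. After drought it went from 1.14% to 2.26% in line 15, from 9.60% to 26.6% in line 23 and from 2.93% to 11.5% in WT. Under control watering it went from 3.59% to 13.9% in line 15, from 4.31% to 23.6% in line 23 and from 1.15% to 2.47% in WT. Parts of the library sum given below include that locus unless stated otherwise. A locus missing from a list is called unlisted, since the sources used here do not state the threshold for listing. No listed locus had a depth value or a split-read value under 3, or a fraction covered by depth under 0.801. Each group has 1 library and therefore no spread of its own, and an exact test over 3 genotypes cannot go below p = 0.25.

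The 42 Ogre loci belonged to 3 families. Ogre-PT1 named 19 of them, Ogre-PT2 named 11 and Ogre-PT3 named 12. An internal-part name came first at 29 loci and an LTR name at 13. All names were Ogre names at 27 loci. Of the others, 7 Ogre-PT1 LTR loci also carried Gypsy-71, 6 internal loci also carried Gypsy21 and 2 also carried Gypsy13. Gypsy-71, Gypsy21 and Gypsy13 are other Gypsy families of the same repeat library. A further 31 loci held an Ogre name in a later place only, most of them named first as Gypsy13 (10 loci), Gypsy-71 (8) or Gypsy21 (7), and these were not counted as Ogre loci.

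The loci were pieces of elements, between 103 and 2606 bp long with a median of 491 bp. The longest were an Ogre-PT3_I-int locus of 2606 bp on chromosome 2 (17665547 to 17668152) and an Ogre-PT3_LTR locus of 1942 bp on chromosome 12 (2461875 to 2463816), both listed in line 23 control alone. Ogre-PT1 loci were the shortest, with a median of 254 bp, against 463 bp for Ogre-PT2 and 555.5 bp for Ogre-PT3. They lay on 14 of 19 chromosomes, with 7 on chromosome 1 and 5 each on chromosomes 11, 14 and 19. Chromosome 9 had 3 Ogre loci among 10 listed loci of any family, and chromosome 8 had 1 among 27.

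Several Ogre loci were next to each other. On chromosome 1, an Ogre-PT1_I-int locus (17789458 to 17789758) ended 9 bp before an Ogre-PT2_I-int locus (17789768 to 17790313). On chromosome 11, an Ogre-PT2_I-int locus (12995828 to 12996121) ended 9 bp before another (12996131 to 12996687), and on chromosome 19 an Ogre-PT3_I-int locus (2955668 to 2956023) ended 37 bp before another (2956061 to 2956955). In each of these 3 pairs the left locus was listed in a single library, while the right one was listed in 6 libraries on chromosome 1, in 5 on chromosome 11 and in 3 on chromosome 19. Within 5000 bp of another locus with any Ogre name lay 7 of the 42 loci, so neighbouring entries may share an element and are not independent.

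Most Ogre loci were seen once. They were listed in a single library in 32 of 42 cases, and in 2 or more libraries in 10 cases (23.8%), close to the 26.6% of all 436 loci that were listed in 2 or more. Listing in 3 or more libraries was found for 8 Ogre loci (19.0%), against 14.9% of all loci, and listing in all 6 for 2 (4.76%), against 1.61%. The families differed in this respect. Of the 19 Ogre-PT1 loci, 1 was listed in more than 1 library, against 5 of 11 for Ogre-PT2 and 4 of 12 for Ogre-PT3. By part, 9 of 29 internal loci and 1 of 13 LTR loci were listed more than once. These counts describe the lists and were not tested.

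**Figure D1:**
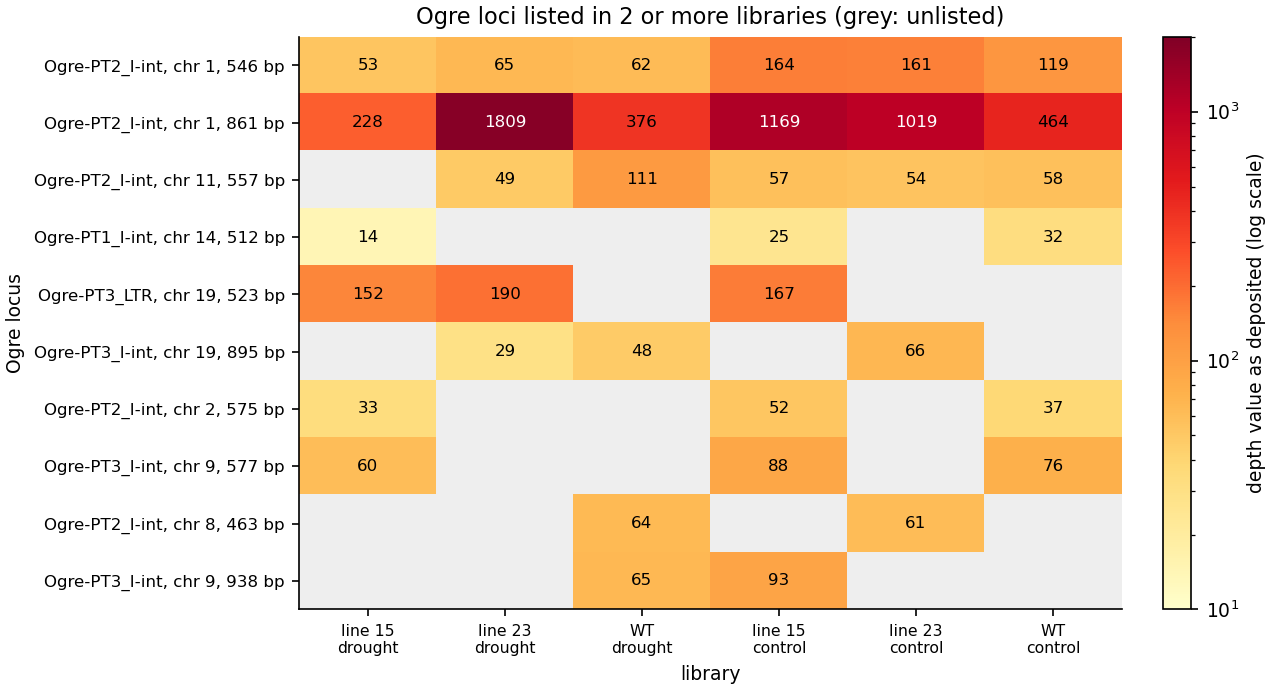
Depth value as deposited (colour on a log scale, value printed in each cell) of the 10 Ogre loci listed in 2 or more libraries, by library. Rows are named by the first family name, chromosome and length, and grey cells are unlisted. The 861 bp locus is the highest Ogre value in all 6 columns, and each of the 10 rows has a value in at least 1 drought and at least 1 control library.

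All 10 of the repeatedly listed Ogre loci were listed under both waterings. Over all families, 70.7% of the 116 loci in 2 or more libraries were listed under both. Of the Ogre loci, 5 were listed in drought libraries alone (11.9%, against 24.5% of all loci) and 27 in control libraries alone (64.3%, against 56.7%), and each of these 32 was in 1 library. By genotype, 21 Ogre loci were in RNAi libraries alone (50.0%, against 48.2% of all loci) and 12 in WT libraries alone (28.6%, against 30.5%).

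The locus that led the Ogre signal was Ogre-PT2_I-int on chromosome 1 (41624029 to 41624889, 861 bp), an internal piece that also carried the names Gypsy21-PTR_I-int and Ogre-PT1_I-int. It was listed in all 6 libraries. Its depth value was 228 in line 15 drought, 1809 in line 23 drought and 376 in WT drought, against 1169 in line 15 control, 1019 in line 23 control and 464 in WT control. The 3 highest values were thus all from RNAi libraries, and the lowest was from an RNAi library too. By depth value it held place 8 of the line 15 drought list, 2 of line 23 drought and 5 of WT drought, against 3 of line 15 control, 2 of line 23 control and 11 of WT control. Per 100 bp of locus the depth value was 26.5 in line 15 drought, 210.1 in line 23 drought and 43.7 in WT drought, against 136 in line 15 control, 118 in line 23 control and 53.9 in WT control.

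The same locus held between 39.9% (line 15 drought) and 84.1% (line 23 drought) of the summed depth value of the Ogre loci. Its part of the Ogre split-read value was larger, from 62.6% in WT drought to 93.3% in line 23 control. The split-read value was 167 in line 15 drought, 2110 in line 23 drought and 273 in WT drought, against 919 in line 15 control, 1133 in line 23 control and 489 in WT control. It exceeded the depth value in both line 23 libraries and in WT control, and lay between 0.726 and 0.786 of it in the other 3. Split reads covered between 0.394 (line 23 drought) and 0.784 (line 15 control) of the locus. The drought to control contrast at this locus went in different directions. As a log2 ratio of drought over control, its depth value gave -2.36 in line 15, 0.83 in line 23 and -0.30 in WT (mean -0.61, SD 1.62, n = 3, exact sign-flip p = 0.75, adjusted p = 0.875). The mean turned to 0.41 for depth as a part of the library sum, and to 0.26 without line 15. As a part of the library sum the ratio was -1.88 in line 15, 1.82 in line 23 and 1.29 in WT, so the WT sign turned.

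**Figure D2:**
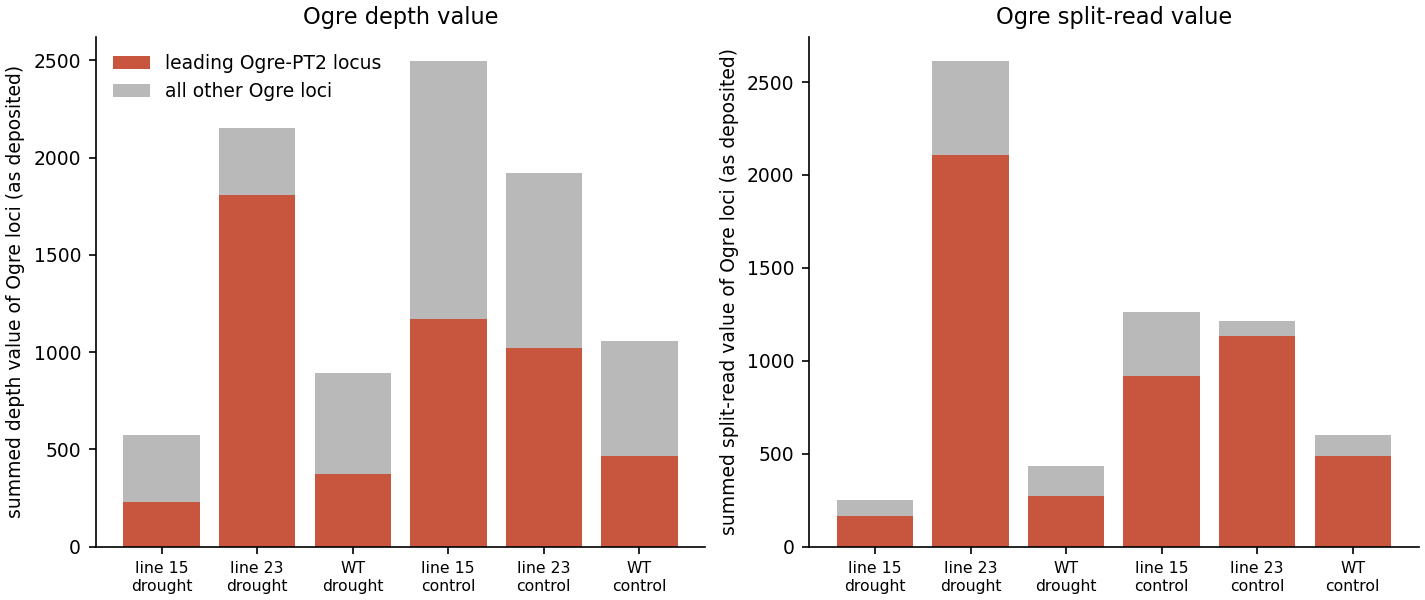
Summed depth value (left) and summed split-read value (right) of the Ogre loci in each library, as deposited, with the leading Ogre-PT2_I-int locus in red and all other Ogre loci in grey. The red part is 84.1% of the depth bar in line 23 drought and 39.9% in line 15 drought, and it is over 60% of every split-read bar.

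The other Ogre locus listed in all 6 libraries was Ogre-PT2_I-int at 17789768 to 17790313 on chromosome 1 (546 bp). Its depth value was 53 in line 15 drought, 65 in line 23 drought and 62 in WT drought, against 164 in line 15 control, 161 in line 23 control and 119 in WT control. All drought values lay below all control values on the scale as deposited. The log2 ratio, drought over control, was -1.63 in line 15, -1.31 in line 23 and -0.94 in WT (mean -1.29, SD 0.34, n = 3, exact sign-flip p = 0.25, the smallest possible, adjusted p = 0.467). As a part of the library sum, the WT ratio was 0.65, and the mean shrank to -0.27. Its split-read values did not follow the depth values. They were 8 in line 15 drought against 80 in line 15 control, 3 in both line 23 libraries and 17 in both WT libraries. Only the line 15 pair differed.

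Across the 6 libraries the log2 depth value of this 546 bp locus was most like that of Gypsy-72_PTr-LTR at 38198036 on chromosome 1 (Pearson's r = 0.86), followed by ENSPM1_PT, a CACTA transposon on chromosome 14 (0.54), and the leading Ogre locus (0.47). The leading Ogre locus was in turn most like the 546 bp locus (0.47) and Gypsy-72_PTr-LTR (0.31), followed by SINE2-2_PTr (-0.13). These were compared among the 7 loci listed in all 6 libraries, n is 6, and the points share each library's depth. For depth as a part of the library sum the values for Gypsy-72_PTr-LTR were 0.80 with the 546 bp locus and 0.91 with the leading locus, and the 2 Ogre loci had r = 0.85, while ENSPM1_PT with the 546 bp locus had -0.039. Both loci of a pair were then divided by the same 6 sums, so this scale does not remove what the points share.

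An internal Ogre-PT2 locus on chromosome 11 (12996131 to 12996687, 557 bp) was listed in 5 libraries and unlisted in line 15 drought. Its depth value was 49 in line 23 drought and 111 in WT drought, against 57 in line 15 control, 54 in line 23 control and 58 in WT control. As deposited, only WT drought stood clear of the narrow range of the other 4. As a part of the library sum both drought libraries lay above the 3 control libraries, with 0.219% in line 23 drought and 0.364% in WT drought, against 0.0819% in line 15 control, 0.121% in line 23 control and 0.0630% in WT control. That sum includes the highest locus of each list, and these parts were not computed without that locus. Leaving that highest locus out raised the Ogre part from 9.60% to 26.6% in line 23 drought and from 4.31% to 23.6% in line 23 control. The order in line 23 may thus not hold without it. The split-read value of the chromosome 11 locus was likewise highest in WT drought, at 75, against 6 in line 23 drought, 18 in line 15 control, 4 in line 23 control and 12 in WT control.

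Ogre-PT3_LTR on chromosome 19 (11283528 to 11284050, 523 bp) was the one LTR locus listed more than once. It had depth values of 152 in line 15 drought, 190 in line 23 drought and 167 in line 15 control, and was unlisted in line 23 control and in both WT libraries. Of the Ogre loci it alone was listed in both drought RNAi libraries and in neither WT library, which holds for 0.917% of all loci. As deposited, its depth value differed little between the 3 libraries, but as a part of the library sum line 15 drought held 0.303% and line 23 drought 0.849%, against 0.240% in line 15 control. That sum includes the highest locus of each list, and these parts were not computed without that locus. Leaving that highest locus out raised the Ogre part from 1.14% to 2.26% in line 15 drought and from 3.59% to 13.9% in line 15 control. The order in line 15 may thus not hold without it. The split-read value of the LTR locus was 44 in line 15 drought, 486 in line 23 drought and 76 in line 15 control. In line 23 drought the split-read value was 2.56 times the depth value. No Ogre locus was listed in all 4 RNAi libraries and neither WT library (0.459% of all loci), and none in both WT libraries and no RNAi library (1.83%).

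Listing in exactly line 15 drought, line 15 control and WT control was found for 3 internal loci. Ogre-PT2_I-int on chromosome 2 (25140851 to 25141425) had a depth value of 33 in line 15 drought, against 52 in line 15 control and 37 in WT control. Ogre-PT3_I-int on chromosome 9 (1751928 to 1752504) had 60 in line 15 drought, against 88 in line 15 control and 76 in WT control. Ogre-PT1_I-int on chromosome 14 (16312787 to 16313298) had 14 in line 15 drought, against 25 in line 15 control and 32 in WT control, and its split-read value of 29 exceeded its depth value in line 15 control. At all 3 loci line 15 drought had the lowest of the 3 deposited values. As a part of the library sum this held for the chromosome 14 locus only. The chromosome 2 locus then held 0.0658% in line 15 drought, against 0.0747% in line 15 control and 0.0402% in WT control. The chromosome 9 locus held 0.120% in line 15 drought, against 0.126% in line 15 control and 0.0826% in WT control. Ogre-PT3_I-int on chromosome 19 (2956061 to 2956955) instead had 29 in line 23 drought and 48 in WT drought, against 66 in line 23 control.

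Among loci listed once, a few had high values. Ogre-PT1_LTR on chromosome 14 (15725086 to 15725295) had a depth value of 135 in WT drought, and Ogre-PT1_LTR on chromosome 5 (24658596 to 24659200) had 304 in line 15 control. In line 23 control, Ogre-PT3_LTR on chromosome 12 had 214 and Ogre-PT1_LTR on chromosome 19 (2979944 to 2980519) had 166. Ogre-PT3_I-int on chromosome 1 (48199177 to 48199736) had 113 in WT control. Their split-read values were low beside these, between 3 and 26. At the other end, Ogre-PT1_LTR on chromosome 16 (6518937 to 6519061) had a depth value of 3 and a split-read value of 6 in WT control.

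**Figure D3:**
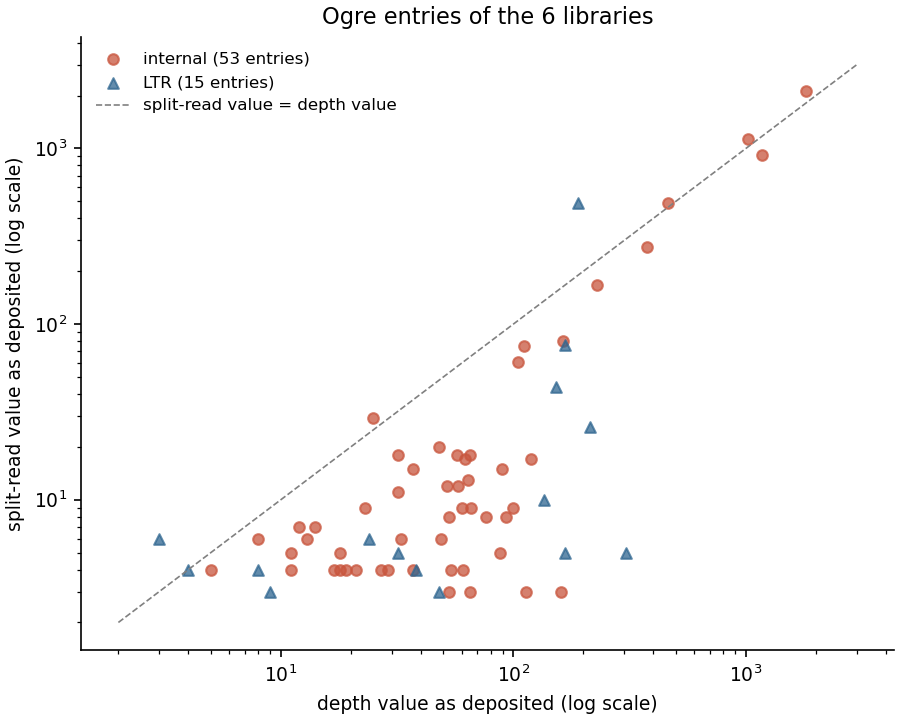
Split-read value against depth value, both as deposited on log axes, for the 68 Ogre entries of the 6 libraries, with circles for internal and triangles for LTR names. Most entries lie below the dashed line of equal values, and 6 lie above it.

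Across the 68 Ogre entries the depth value ran from 3 to 1809 and the split-read value from 3 to 2110. More split-read than depth signal was found in 6 entries (8.82%), against 9.92% of all 665 entries. Those 6 were 3 entries of the leading locus, the chromosome 19 LTR locus in line 23 drought, and the chromosome 14 and chromosome 16 loci above. Depth covered the whole locus in 20 of the 68 entries.

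The first comparison between groups asked how the Ogre loci differed after drought and rewatering. Fewer Ogre loci were listed after drought in each genotype. There were 7 in line 15 drought, 6 in line 23 drought and 9 in WT drought, against 19 in line 15 control, 12 in line 23 control and 15 in WT control. The mean difference was -8 loci (SD 3.46, n = 3, adjusted p = 0.467 over 14 tests), with the smallest exact sign-flip p that is possible, 0.25. Drought over control, the ratio of Ogre numbers was 0.368 in line 15, 0.5 in line 23 and 0.6 in WT, beside a ratio for all listed loci of 0.467 in line 15, 0.404 in line 23 and 0.772 in WT. The lists as a whole were thus shorter after drought, and the Ogre ratio lay below that of the whole list in line 15 and WT and above it in line 23.

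**Figure D4:**
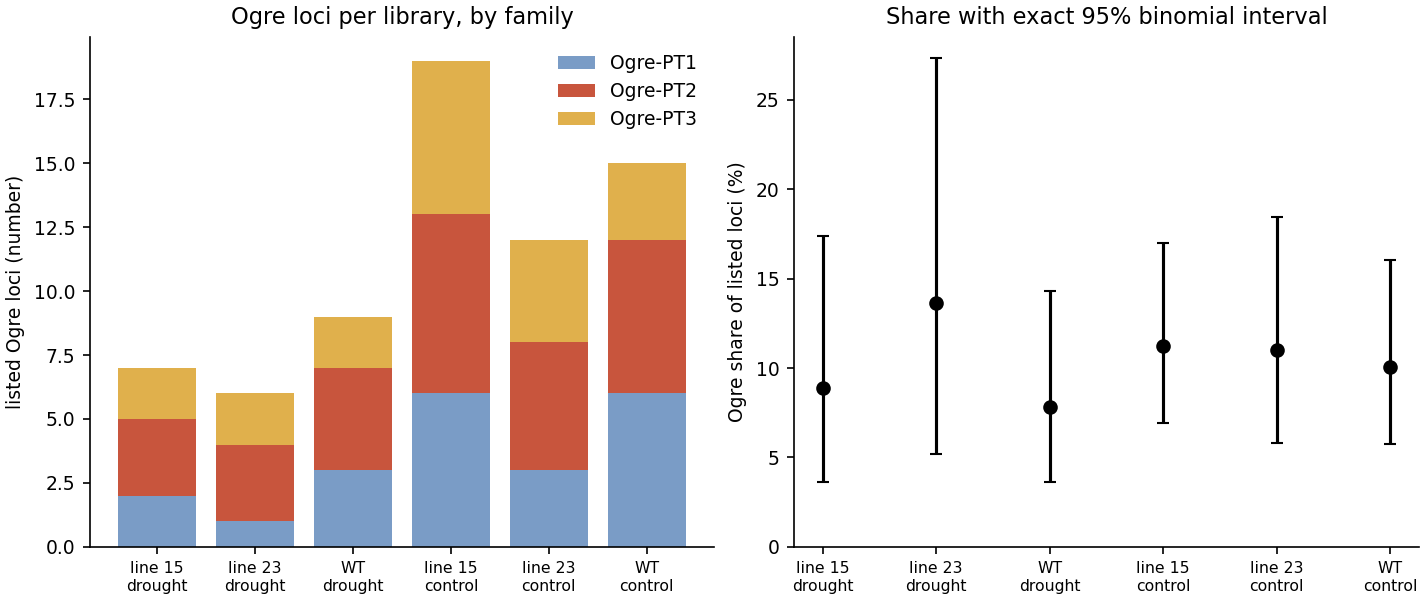
Left: number of listed Ogre loci in each library, stacked by family. Right: Ogre loci as a percent of all loci in the list, with exact 95% binomial intervals (counting error only). The 3 drought bars (6 to 9 loci) are lower than the 3 control bars (12 to 19), while the intervals of the shares overlap in all 6 libraries.

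As a share of the list, Ogre made up 8.86% in line 15 drought (exact 95% Clopper-Pearson interval 3.64 to 17.4), 13.6% in line 23 drought (5.17 to 27.4) and 7.83% in WT drought (3.64 to 14.3). The control shares were 11.2% in line 15 (6.91 to 17.0), 11.0% in line 23 (5.82 to 18.4) and 10.1% in WT (5.74 to 16.1). All 6 intervals overlap. They reflect counting error alone, because each group has 1 library, and they treat neighbouring loci as independent. The mean change was -0.665 percentage points (SD 2.85, n = 3, exact sign-flip p = 1, lower in 2 of 3 genotypes). It turned to 1.86 with a depth value of at least 20, to 0.123 without WT and to 0.193 without line 15.

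All 3 families had fewer loci after drought in each genotype. The whole lists were shorter too, with drought over control ratios of 0.467 in line 15, 0.404 in line 23 and 0.772 in WT. The family counts are small and were not tested against these ratios. Ogre-PT1 had 2 loci in line 15 drought, 1 in line 23 drought and 3 in WT drought, against 6 in line 15 control, 3 in line 23 control and 6 in WT control. Ogre-PT2 had 3 in each drought RNAi library and 4 in WT drought, against 7 in line 15 control, 5 in line 23 control and 6 in WT control. Ogre-PT3 had 2 in each drought library, against 6 in line 15 control, 4 in line 23 control and 3 in WT control. In summed depth value the families were not alike. Ogre-PT2 summed to 314 in line 15 drought, 1923 in line 23 drought and 613 in WT drought, against 1601 in line 15 control, 1322 in line 23 control and 705 in WT control, so that as deposited line 23 alone was higher after drought. As a part of the library sum WT was higher too, with 2.01% in WT drought against 0.766% in WT control, beside 8.59% in line 23 drought against 2.97% in line 23 control. The leading Ogre locus gave 1809 of the 1923 in line 23 drought and 1019 of the 1322 in line 23 control. The other Ogre-PT2 loci of line 23 were together lower after drought as deposited. Ogre-PT1 summed to 46 in line 15 drought against 494 in line 15 control, and to 8 in line 23 drought against 175 in line 23 control. In WT it summed to 167 after drought against 139 in control, and the single Ogre-PT1_LTR locus of chromosome 14 gave 135 of the 167. Ogre-PT3 summed to 212 in line 15 drought, 219 in line 23 drought and 113 in WT drought, against 401 in line 15 control, 422 in line 23 control and 213 in WT control, lower after drought in all 3 genotypes as deposited. As a part of the library sum only line 15 was lower, with 0.423% in line 15 drought against 0.576% in line 15 control. Ogre-PT3 then held 0.978% in line 23 drought against 0.948% in line 23 control, and 0.370% in WT drought against 0.231% in WT control. These family parts rest on sums that include the highest locus of each list, and they were not computed without it.

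Of the Ogre loci listed in control, some were listed again after drought. In line 15 these were 6 of 19 (31.6%, against 17.8% of all its control loci), in line 23 they were 4 of 12 (33.3%, against 13.8%) and in WT 3 of 15 (20%, against 25.5%). Seen from the drought lists, 6 of 7 Ogre loci of line 15 drought, 4 of 6 of line 23 drought and 3 of 9 of WT drought were also in the matching control list. Over all families these shares were 38.0% in line 15, 34.1% in line 23 and 33.0% in WT. The counts are small, the same 2 loci are among them in every genotype, and no test was made of them.

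At Ogre loci listed under both waterings the depth value was lower after drought at 6 of 6 loci in line 15, 3 of 4 in line 23 and 2 of 3 in WT. Among all loci listed under both, it was lower at 63.3% in line 15, 80% in line 23 and 65.8% in WT. At least 2-fold lower were 2 of 6 Ogre loci in line 15, 2 of 4 in line 23 and 0 of 3 in WT. Among all loci listed under both, this held for 23.3% in line 15, 33.3% in line 23 and 10.5% in WT. At least 2-fold higher were 0 Ogre loci in each genotype, against 3.33% of all loci in line 15, 13.3% in line 23 and 15.8% in WT. The median log2 ratio of the Ogre loci was -0.75 in line 15, -0.66 in line 23 and -0.30 in WT, beside -0.32 in line 15, -0.55 in line 23 and -0.38 in WT for all loci. The mean of the Ogre medians was -0.57 (SD 0.24, n = 3, exact sign-flip p = 0.25, adjusted p = 0.467), and it turned to 0.45 for depth as a part of the library sum.

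The Ogre part of the summed depth value was 1.14% in line 15 drought, 9.60% in line 23 drought and 2.93% in WT drought, against 3.59% in line 15 control, 4.31% in line 23 control and 1.15% in WT control. Line 15 was thus lower after drought, and line 23 and WT were higher. The mean change was 1.54 percentage points (SD 3.87, n = 3, exact sign-flip p = 0.75, adjusted p = 0.875). It turned to -0.335 without line 23 and to -6.77 when split-read values were summed instead. Without the leading Ogre locus, Ogre loci held 0.690% in line 15 drought, 1.66% in line 23 drought and 1.71% in WT drought, against 1.94% in line 15 control, 2.07% in line 23 control and 0.648% in WT control. The highest locus of each list was not an Ogre locus. With that 1 locus left out of each sum, the Ogre part was 2.26% in line 15 drought, 26.6% in line 23 drought and 11.5% in WT drought, against 13.9% in line 15 control, 23.6% in line 23 control and 2.47% in WT control.

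The second comparison concerned the ddm1 RNAi lines. Their 4 libraries listed 11 Ogre loci on average (SD 5.94, n = 4, both waterings together), against 12 in WT (9 and 15). The difference of -1 had an exact permutation p = 0.933 over 15 splits (adjusted p = 1). The difference was -2.5 after drought and 0.5 under control watering. It turned to 0.5 with a depth value of at least 20 and to 1 without line 23. As a share of the list, Ogre made up 11.2% in RNAi (SD 1.95, n = 4) and 8.95% in WT (7.83% and 10.1%), a difference of 2.24 percentage points (exact permutation p = 0.267, adjusted p = 0.467). Both RNAi lines lay above WT under each watering, by a mean of 3.42 points after drought and 1.06 under control watering, with p = 0.333 in an exact permutation within watering, where 0.111 is the smallest possible. The sign turned, to -0.868, when the fraction covered by depth had to be at least 0.9.

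Ogre loci held 4.66% of the summed depth value in RNAi (SD 3.56, n = 4) and 2.04% in WT (2.93% and 1.15%), a difference of 2.62 percentage points (exact permutation p = 0.4, adjusted p = 0.622). The difference was 2.45 points after drought, where line 15 lay below WT and line 23 above it, and 2.80 under control watering, where both lines lay above WT. It turned to -6.99 with a covered fraction of at least 0.9 and to -0.313 with depth divided by locus length. It was 0.327 without line 23 and 4.92 without line 15, and 9.61 without the highest locus of each library. Without the leading Ogre locus, line 15 (0.690%) and line 23 (1.66%) both lay below WT (1.71%) after drought. Under control watering line 15 (1.94%) and line 23 (2.07%) still lay above WT (0.648%). In split-read value, Ogre loci held 10.4% in line 15 drought, 28.4% in line 23 drought and 17.2% in WT drought, against 27.0% in line 15 control, 36.3% in line 23 control and 13.0% in WT control. Without the leading Ogre locus these shares were 3.77% in line 15 drought, 7.08% in line 23 drought and 7.23% in WT drought. Under control watering they were then 9.17% in line 15, 3.66% in line 23 and 2.69% in WT.

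The third comparison set Ogre loci against the other loci of the same libraries. Ogre loci were the longer in 6 of 6 libraries. Their median length was 575 bp in line 15 drought, 551.5 bp in line 23 drought and 557 bp in WT drought, and it was 546 bp in line 15 control, 551.5 bp in line 23 control and 512 bp in WT control, against medians from 217 bp (WT drought) to 367.5 bp (WT control) for all other loci. The mean difference of the medians was 286 bp (SD 71.1, n = 6 libraries, exact sign-flip p = 0.0312, the smallest possible, adjusted p = 0.219). The libraries share loci and are not independent of each other in this measure. Other Gypsy loci, the nearest relatives, had medians between 300 and 474 bp, below the Ogre median in each library.

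**Figure D5:**
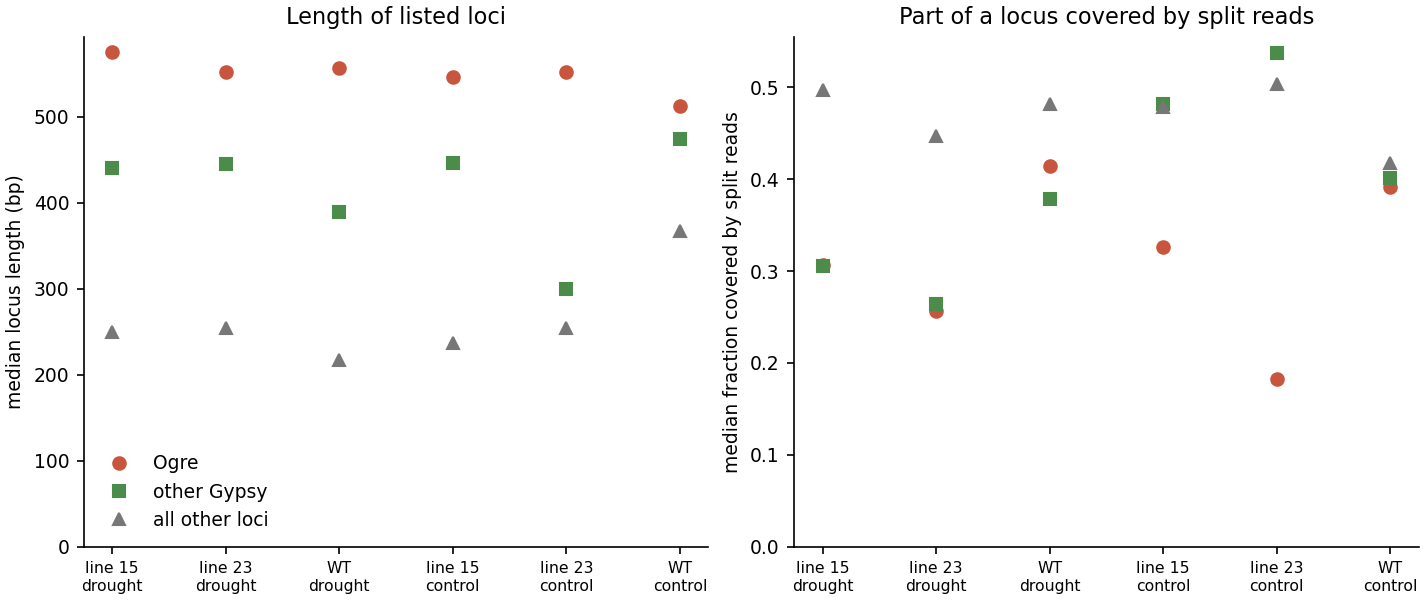
Median locus length in bp (left) and median fraction of a locus covered by split reads (right) in each library, for Ogre loci (circles), other Gypsy loci (squares) and all other loci that are not Ogre (triangles). The Ogre length is the highest of the 3 in all 6 libraries, and its split-read fraction is below that of all other loci in all 6.

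Split reads covered a smaller fraction of Ogre loci than of other loci in 6 of 6 libraries. The median fraction was 0.307 in line 15 drought, 0.257 in line 23 drought and 0.415 in WT drought, and it was 0.326 in line 15 control, 0.182 in line 23 control and 0.392 in WT control, against medians between 0.418 and 0.504 for the others. The mean difference was -0.158 (SD 0.105, n = 6, exact sign-flip p = 0.0312, adjusted p = 0.219). Longer loci take more reads to cover, and the part of length in this difference was not tested. The median ratio of split-read to depth value was lower in Ogre loci in 5 of 6 libraries (mean difference -0.0800, SD 0.0758, exact sign-flip p = 0.0625, adjusted p = 0.219). That difference turned to 2.3e-05 with a depth value of at least 20. The fraction covered by depth differed by -0.00761 (SD 0.0448, n = 6, exact sign-flip p = 0.719). Beside other Gypsy loci, the Ogre split-read fraction was not lower in every library. The other Gypsy median was 0.306 in line 15 drought, 0.264 in line 23 drought and 0.378 in WT drought. It was 0.482 in line 15 control, 0.537 in line 23 control and 0.401 in WT control. The Ogre median was thus above it in line 15 drought and WT drought, and this comparison was not tested.

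The median depth value of Ogre loci was 53 in line 15 drought, 57 in line 23 drought and 64 in WT drought, and it was 52 in line 15 control, 63.5 in line 23 control and 37 in WT control, each above the median of all other loci, which ran from 19.5 (line 23 drought) to 36 (WT control). Per 100 bp the order was no longer the same in every library. The Ogre median was then 9.71 against 14.4 for all other loci in line 15 drought, and 6.36 against 7.56 in WT control. In the other 4 libraries Ogre stayed above, with medians between 9.91 and 11.4. Beside other Gypsy loci, the Ogre median depth value was lower in WT control (37 against 43) and higher in every other library.

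Ogre loci were named mostly for their internal part. An internal name came first at 6 of 7 Ogre loci in line 15 drought, 4 of 6 in line 23 drought and 8 of 9 in WT drought, and at 15 of 19 in line 15 control, 9 of 12 in line 23 control and 11 of 15 in WT control. Among other Gypsy loci the internal share was between 29.7% and 66.7%. Ogre minus other Gypsy, the internal share was 56.0 percentage points in line 15 drought, 0 in line 23 drought and 59.1 in WT drought, and it was 48.9 in line 15 control, 36.0 in line 23 control and 28.9 in WT control. The mean difference was 38.1 percentage points (SD 22.0, n = 6, above 0 in 5 of 6 libraries, exact sign-flip p = 0.0625, adjusted p = 0.219). Ogre loci made up 15.9% of all Gypsy loci in line 15 drought, 22.2% in line 23 drought and 13.6% in WT drought, against 24.1% in line 15 control, 22.6% in line 23 control and 17.2% in WT control.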

How the data were processed

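Per the labels' protocols, CTAB-extracted DNA was enriched for circles by amplification and Nextera XT libraries were read on a MiSeq. The submitters' processing notes name Bowtie2 without a version. The build, the filters and the way reads were counted are not stated in the sources used here. The deposited lists give 2 coverage signals per locus, headed DOC and SR, as whole numbers with no scaling, and they were not treated as counts. The deposited fraction of each locus covered is headed as a percent. Since end minus start gave the deposited length for all 665 entries, starts were raised by 1 to count from 1. A sheet was matched to the sample with that title. Total reads per library were not used here, so depth is unknown.

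Loci were matched by chromosome, start and end. Differences were tested with two-sided exact sign-flip tests over 3 genotypes or 6 libraries and with exact permutations of 4 RNAi against 2 WT libraries (15 splits), with Benjamini-Hochberg adjustment over 14 tests (Python 3.11.15, scipy 1.17.1), and the test functions were tested on simulated data. No test had an adjusted p under 0.05, which these sample sizes could not give, and 2 had an unadjusted p under 0.05. Loci described singly were those in 3 or more libraries, the 3 highest by depth value in each library, those whose split-read value exceeded the depth value, and those listed in one genotype class only in the sets given. The members and lists were chosen with earlier results of these data known.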

Additional observations from a re-analysis of the deposited data

Results flagged for a closer look

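Directions opposed between genotypes were found for 4 measures, drought against control, and the differences between genotypes were not tested. With 1 pair of libraries per genotype, opposed signs also arise from noise. The change of the Ogre share of listed loci was -2.38 percentage points in line 15, 2.63 in line 23 and -2.24 in WT. The change of the Ogre share of the summed depth value was -2.45 in line 15, 5.29 in line 23 and 1.78 in WT. At the leading Ogre-PT2_I-int locus the log2 depth ratio was -2.36 in line 15, 0.83 in line 23 and -0.30 in WT. As a part of the library sum it was -1.88 in line 15, 1.82 in line 23 and 1.29 in WT. At Ogre-PT2_I-int on chromosome 11 (12996131 to 12996687) the log2 ratio of deposited depth values was -0.14 in line 23 and 0.94 in WT, with no value in line 15. As a part of the library sum this locus was higher after drought in both, at 0.219% in line 23 drought against 0.121% in line 23 control and at 0.364% in WT drought against 0.0630% in WT control. These sums include the highest locus of each list, and the order in line 23 may not hold without it.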

How the results depend on the processing

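Of 115 alternative values, 97 kept their direction and their side of the adjusted threshold, and no alternative brought an adjusted p under 0.146. The 97 include counts of Ogre loci, which have no direction and no p, and permutations within watering, which keep the main value by construction. With 14 tests of these sizes no adjusted p could fall under 0.05, so the side of the threshold was fixed in advance. The alternatives that turned sign are grouped by setting. With a depth value of at least 20, the number of Ogre loci, RNAi minus WT, was 0.5, the drought change of the share was 1.86 percentage points and the difference in split-read over depth was 2.3e-05. With a covered fraction of at least 0.9, the RNAi minus WT share was -0.868 and the share of depth -6.99. Depth divided by locus length gave -0.313 for the RNAi minus WT share of depth, and split-read values gave -6.77 for its drought change. Depth as a part of the library sum gave 0.45 for the median log2 ratio of shared Ogre loci and 0.41 for the leading locus. Without line 23, the number of Ogre loci, RNAi minus WT, was 1 and the drought change of the share of depth -0.335. Without line 15, the log2 ratio of the leading locus was 0.26 and the drought change of the share of loci 0.193, and this change was 0.123 without WT. The difference in fraction covered by depth was 0.00469 with any Ogre name counted, and between -0.0154 and 0.00544 with each library left out. Counting any Ogre name gave 73 loci in place of 42. The count was 28 with a depth value of at least 20 and 28 with a covered fraction of at least 0.9. It was 39 with loci within 1000 bp merged. The causes were not tested. Leaving out WT gives no RNAi minus WT value. The drought tests paired the libraries by genotype, and no replicate block was fitted, since the labels give no replicate numbers.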
